A study of Mus musculus with 165 samples.

Results

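The respiratory chain genes encode the subunits of complexes I to V and cytochrome c. They were taken by symbol from a table of 36255 genes. The rule uses no measured values, but it was chosen with earlier results of these data known. Nuclear genes named as Nduf, Sdh, Uqcr, Cox4 to Cox8 or Atp5 subunits were taken, together with Cycs. The mt-Nd, mt-Co, mt-Cytb and mt-Atp genes of the mitochondrial genome were added, and symbols ending in -ps were left out. Cox6c2, annotated as a processed pseudogene and 96.97% identical to Cox6c, fits the symbols and was kept. This gave 99 genes, of which 86 are nuclear and 13 are mitochondrial. All counts by complex follow the gene symbols. The nuclear genes comprise 37 of complex I, 4 of complex II, 8 of complex III, 19 of complex IV, 17 of complex V and the gene of cytochrome c. The mitochondrial genes comprise 7 of complex I, 1 of complex III, 3 of complex IV and 2 of complex V. The deposited values are normalized counts, reads divided by a size factor of the library. For the tests, a gene needed a normalized count of 5 or more in some library, which 84 nuclear and all 13 mitochondrial genes reached, while Cox8b and Cox8c did not.

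Complexes I and II pass electrons from NADH and succinate to ubiquinone, complex III passes them on to cytochrome c, and complex IV passes them to oxygen. Complexes I, III and IV pump protons, and complex V, the ATP synthase, uses the proton gradient to make ATP. The mitochondrial genes are transcribed from both strands of the circular genome as long precursors that are cut into single mRNAs, whereas the nuclear subunits are transcribed in the nucleus and imported as proteins. In the myeloid lineage, mature neutrophils are known to hold few mitochondria and to rely mostly on glycolysis.

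The RNA came from PUER cells, a line of mouse myeloid progenitors without PU.1 of their own (Spi1-/-) that express a fusion of PU.1 and an estrogen receptor fragment, which 4-hydroxytamoxifen (OHT) activates. All groups share this genotype and come from 1 line. Undifferentiated cells in IL3 without OHT (3 libraries) started both courses. In the neutrophil course, cells had 48h of GCSF (GCSF 0h, 3 libraries, before OHT) and then 100 nM OHT in GCSF for 27 time points up to 168h (GCSF-OHT, 78 libraries). In the macrophage course, cells had 200 nM OHT in IL3 for 27 time points up to 168h (IL3-OHT, 81 libraries). The medium was partly replaced and fresh OHT given at 40h, 88h and 136h. A change across these hours cannot be told apart from an effect of this renewal. No library without OHT was taken after 0h in either course, so OHT and time in culture cannot be told apart. Cells after 24h were detached with trypsin, and each time point had a plate of its own, so that a time point and its plate cannot be told apart. Replicates were wells of such a plate, and p-values measure the spread between them. GCSF-OHT 96h, 112h and 152h had 2 libraries, and the other 53 groups of 56 had 3.

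Between 14600246 and 33147945 reads per library fell on genes (median 21960878), so that 3 reads, the smallest number taken as detected, equal a normalized count of 1.96 to 5.51. Against undifferentiated cells, 5 of 5 progenitor markers were called lower at 168h in both courses. Of the 5, 1 was below the floor in undifferentiated cells already, and 2 were below it at 168h in each course. Of 11 neutrophil markers 5 were called higher and 2 lower at GCSF-OHT 168h, and 3 and 3 at IL3-OHT 168h. Of 9 macrophage and monocyte markers the calls were 3 and 2 in GCSF-OHT and 6 and 2 in IL3-OHT. Csf1r, the receptor for M-CSF and a defining macrophage gene, was near the floor, with 8.63 ± 1.68 (SD, n = 3) in undifferentiated cells, 4.91 ± 1.54 at IL3-OHT 168h and 16.4 ± 2.33 at GCSF-OHT 168h. Of 12 markers of other blood cells, 9 were below the floor in undifferentiated cells, at GCSF 0h and at 168h in both courses.

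Per kilobase of exon, the mitochondrial genes were far above the nuclear genes. Their mean normalized counts per kb ran from 2946 to 96340, with a median of 20170, against a median of 903 and a maximum of 9874 (Cox6a1, a structural subunit of complex IV) for the nuclear genes. Together, the 13 mitochondrial genes made up 0.826% to 2.50% of a library's reads and the 86 nuclear genes 0.599% to 1.04%. These are bulk samples, in which fewer cells of a kind and less RNA per cell cannot be told apart.

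The mitochondrial share moved up and down during both courses, as the plot of shares against time shows. It was 1.58% ± 0.074 (SD, n = 3) in undifferentiated cells and 2.05% ± 0.106 at GCSF 0h. In GCSF-OHT it was 1.64% ± 0.062 at 12h, 2.38% ± 0.131 at 20h, 2.13% ± 0.089 at 56h and 1.41% ± 0.127 at 64h, and it ended at 1.45% ± 0.066. In IL3-OHT it was 2.03% ± 0.040 at 48h and 1.36% ± 0.207 at 56h. Its lowest mean of all groups, 0.873% ± 0.074, came at IL3-OHT 128h, and it was 1.42% ± 0.063 at 168h. The highest group mean, at GCSF-OHT 20h, was 2.72 times the lowest.

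The nuclear share followed another path. It was 0.749% ± 0.008 in undifferentiated cells, 1.00% ± 0.039 after GCSF pre-treatment and 0.668% ± 0.011 at the end of GCSF-OHT. In IL3-OHT it was 0.753% ± 0.027 at 4h, 0.894% ± 0.011 at 8h, 0.938% ± 0.005 at 12h and 0.759% ± 0.011 at 168h. No test was run on these sums.

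**Figure D1:**
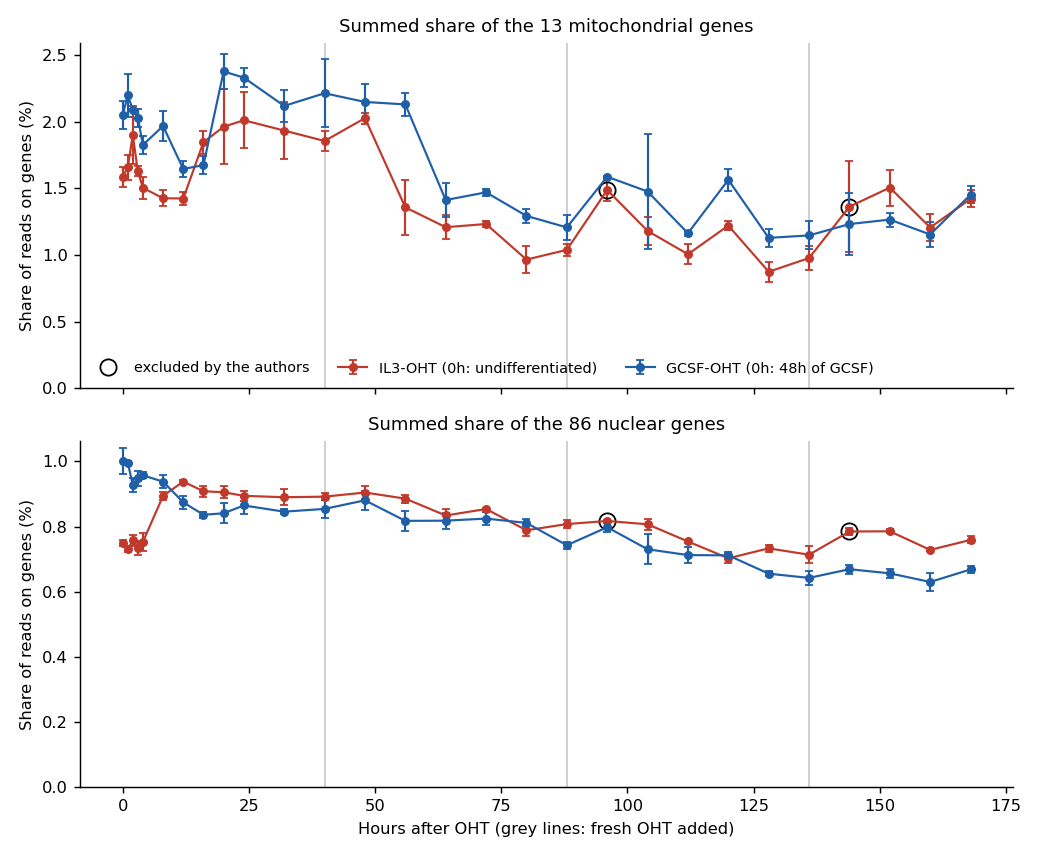
Share of reads on genes (%, means with SD, 2 or 3 libraries each) summed over the 13 mitochondrial genes, without their copies in the nuclear genome, and over the 86 nuclear genes. It is plotted against hours after OHT, for IL3-OHT and GCSF-OHT. The mitochondrial share is lower at 64h than at 48h in both courses, and the large SD at GCSF-OHT 104h comes from replicate 3.

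Some mitochondrial genes have copies in the nuclear genome that read counting can hardly tell from them, which limits single values and sums. The mitochondrial shares of reads leave the copies out and so depend on how reads were split. Shares with the copies were not computed. Near-identical copies annotated as pseudogenes (at least 95% identity over at least 150 bases) were found in the table for 9 mitochondrial and 19 nuclear genes. The copies of 5 mitochondrial genes carried over 10% of the level of their member. The highest was mt-Co2, whose copy Gm28661 was at 207% of its level (means of 30601 and 14818 over all libraries). The others were mt-Nd4l (Gm10222, 42.8%), mt-Atp6 (Gm10925, 42.0%), mt-Nd3 (Gm28438, 35.2%) and mt-Co3 (Gm28437, 31.8%). Among nuclear genes, only Ndufb4 (74.1%), a complex I subunit, passed that level with copies of this kind. The copies of mt-Co1 carried 0.151% of its level. A block of 6 copies lies at chr1:24612407-24616197 (GRCm38, minus strand, 3791 bases).

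Other rows that are not annotated as pseudogenes share sequence with nuclear members as well. Gm10175 is identical to Atp5g2, a gene of subunit c of ATP synthase, over 645 bases, and its level was 1167% of that of Atp5g2, which held 3.71% to 13.5% of their joint level. Gm10053 is 99.9% identical to Cycs, the gene of cytochrome c, over 946 bases, at 81.2% of its level. Levels and fold changes of Atp5g2 and Cycs thus depend on how reads were split, and values with these rows summed are given beside them. Ndufb5, Ndufb6, Atp5o and Cox4i1 share part of a transcript with a neighbouring gene whose level was 14.02% to 20.1% of theirs, and these were not summed.

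The start of the coding sequences shows how close the copies are. The first 60 bases of mt-Co2 (chrM:7013-7072, plus strand) and of Gm28661 (chr1:24615506-24615565, minus strand) are the same, and so are all 681 bases they have in common. For mt-Nd3 (chrM:9459-9518, plus strand) and Gm28438 (chr1:24613060-24613119, minus strand), 344 of 345 common bases are the same, and the 1 difference is T3C (mt-Nd3 base, position from the first base of the gene, copy base), given in capitals.
mt-Co2: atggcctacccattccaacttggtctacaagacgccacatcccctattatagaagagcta
Gm28661: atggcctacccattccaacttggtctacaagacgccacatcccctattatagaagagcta
mt-Nd3: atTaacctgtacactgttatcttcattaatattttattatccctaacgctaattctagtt
Gm28438: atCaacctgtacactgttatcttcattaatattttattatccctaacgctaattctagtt

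The split of reads between mt-Co2, which holds a copper centre of complex IV, and its copy differed between libraries. mt-Co2 held 13.8% to 92.4% (median 30.9%) of their joint level. Within groups, the replicate SD on the log2 scale was 0.25 for mt-Co2 alone and 0.09 for the sum. Mitochondrial calls are therefore also given with members and copies summed where this changes a count.

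Replicate 3 of GCSF-OHT 104h, the library with the most reads, stood apart in this split. The normalized counts of mt-Co2 were 6749 and 8449 in the first replicates and 56890 in replicate 3, which is 7.49 times their mean, while the joint levels were 40444, 35486 and 65063. Those of mt-Nd4l, a membrane subunit of complex I, were 1325, 1097 and 352, with joint levels of 1969, 1979 and 1807. Those of mt-Co1, the catalytic core of complex IV, whose copies carry almost no reads, were 132500, 125800 and 189100. Replicate 3 was thus above the others in mt-Co1 and in the joint mt-Co2 level, and below them in mt-Nd4l. Its mitochondrial share of reads, which leaves the copies out and so moves with the split, was 1.97%, against 1.27% and 1.19%.

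No respiratory chain gene was called at GCSF-OHT 104h against the mean of 96h and 112h, where 0.764% of all 17414 genes tested were called in either direction. A call means an adjusted p (limma, Benjamini-Hochberg) below 0.05 together with a log2 fold change beyond ±0.58. Values printed with an SE are differences of log2(normalized count + 1), and levels are normalized counts. DESeq2 called 0 and edgeR 1 mitochondrial gene, and 8 nuclear and 2 mitochondrial genes had an unadjusted p under 0.05. The log2 fold change of mt-Co2 was 0.44 (SE 0.29) with all 3 replicates, -0.53 (SE 0.27) without replicate 3, and 0.13 with the copies summed.

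**Figure D2:**
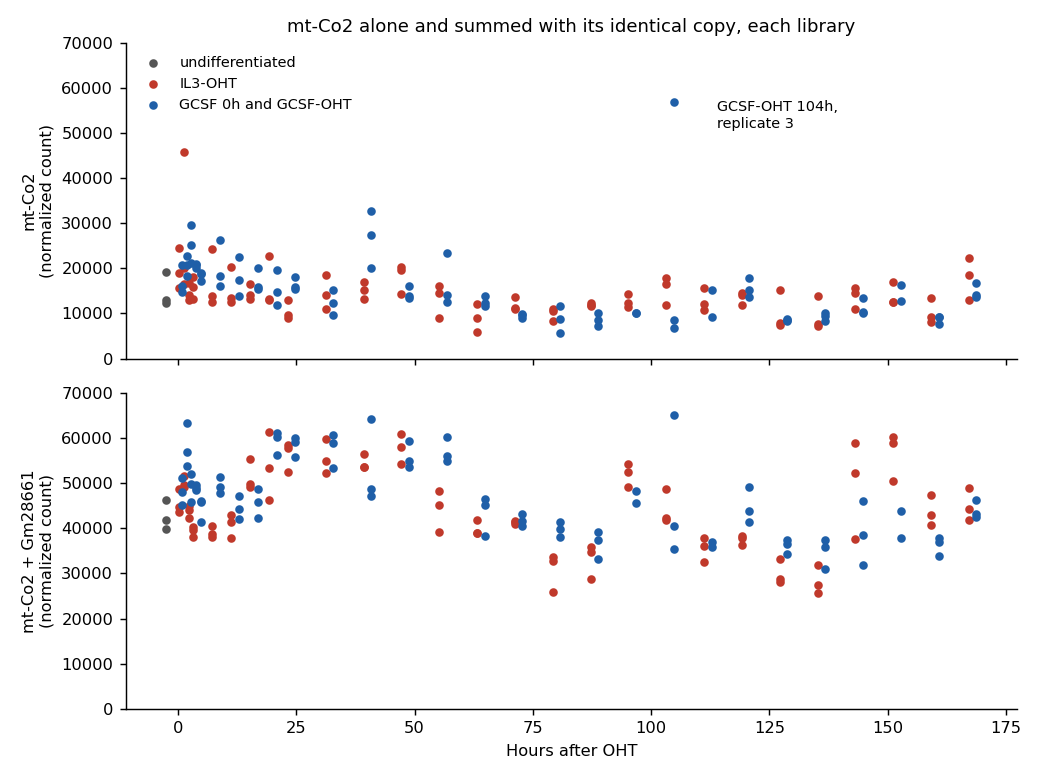
Normalized counts of mt-Co2 alone and of mt-Co2 plus its identical copy Gm28661 in each library, against hours after OHT. mt-Co2 alone is at 56890 in replicate 3 of GCSF-OHT 104h, while the joint level spreads less within groups (replicate SD 0.09 against 0.25 on the log2 scale).

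The timing of the changes was taken from consecutive time points. In IL3-OHT, 25 steps gave 17 calls higher and 29 lower among mitochondrial genes, in 11 steps, and 8 higher and 5 lower among nuclear genes, in 5 steps. Summed over the same steps, 1.76% of all tests were called higher and 1.88% lower. In GCSF-OHT, 27 steps gave 15 higher and 17 lower among mitochondrial genes in 12 steps, and 2 higher and 5 lower among nuclear genes in 6 steps, against 0.935% of all tests higher and 0.87% lower. With members and copies summed, the mitochondrial calls were 15 and 30 in IL3-OHT and 13 and 14 in GCSF-OHT. Without the 6 libraries of 120h, which belong to another series of library names, they were 16 and 23 in IL3-OHT and 12 and 10 in GCSF-OHT. In the GCSF course, leaving out the libraries numbered replicate 3 gave 18 mitochondrial calls. Fits of only the groups of each step, from fewer samples, gave 3 higher and 5 lower mitochondrial calls and 1 higher and 2 lower nuclear calls in GCSF-OHT, and 15 and 23 mitochondrial calls in IL3-OHT.

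Between 48h and 56h of IL3-OHT, 9 mitochondrial genes fell, against 2.72% of all genes lower. mt-Cytb encodes cytochrome b of complex III (ENSMUSG00000064370, chrM:14145-15288, plus strand, without introns). At 48h its normalized counts were 39999, 39359 and 41362, all above those at 56h, which were 26192, 20537 and 28065, and it fell by 0.70 log2 units (SE 0.11, limma adjusted p = 3.19e-07). The complex I gene mt-Nd3 fell by 1.25 log2 units (SE 0.18, limma adjusted p = 4.99e-08), from 2697, 2848 and 2823 to 840, 1110 and 1723. mt-Nd6, the only member coded on the other strand of the mitochondrial genome, fell by 1.0 log2 units (SE 0.11), and mt-Atp8 and mt-Atp6, subunits of the ATP synthase, fell by 1.23 log2 units (SE 0.29) and 1.01 log2 units (SE 0.16). mt-Co1 was not called (-0.38, SE 0.10). The nuclear median at this step was -0.01.

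Further falls came later in IL3-OHT. Between 72h and 80h, 5 mitochondrial genes fell, against 2.26% of all genes lower, with mt-Nd3 lower by 0.93 log2 units (SE 0.18). Between 120h and 128h, 5 fell, against 2.49%, with mt-Nd4, a proton-pumping subunit of complex I, lower by 0.79 log2 units (SE 0.11). All 120h libraries belong to the other series of library names, so this fall cannot be told apart from a difference between series. The mitochondrial median log2 fold change was 0.28 in the step that ends at 120h and -0.56 in the step that starts there. By 128h, mt-Cytb was at 8491, 8587 and 8896, below every undifferentiated library (33614, 37897 and 32653).

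Between 136h and 152h of IL3-OHT, consecutive once 144h was left out as by the authors, 11 mitochondrial genes rose, against 9.22% of all genes higher. This step follows the renewal of medium and OHT at 136h. The counts of mt-Cytb were 9529, 10395 and 8573 at 136h, and all 3 libraries of 152h were above them at 27434, 23098 and 27374 (log2 fold change 1.45, SE 0.11, limma adjusted p = 6.59e-23). Other genes that rose were mt-Nd3 (1.47, SE 0.18), mt-Nd4 (1.42, SE 0.11) and mt-Co3, a core subunit of complex IV (1.26, SE 0.15). mt-Co1 was not called (0.05, SE 0.10).

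At the same step 5 nuclear genes rose and 1 fell, while 6.75% of all genes were lower. Atp5g1, a gene for subunit c of ATP synthase (0.65, SE 0.06), Cox5b, a structural subunit of complex IV (0.64, SE 0.07), Atp5k, subunit e of ATP synthase (0.63, SE 0.15), Cox7a1 (0.95, SE 0.29) and Cox4i2 rose. Ndufa6, an accessory subunit of complex I, fell by 0.61 log2 units (SE 0.07). Cox4i2 was near the floor of 3 reads in every library (at most 7.36), and its fold is not given. Between 152h and 160h, 6 mitochondrial genes fell again, against 0.999% of all genes lower, with mt-Nd3 lower by 0.86 log2 units (SE 0.18) and mt-Nd4 by 0.70 log2 units (SE 0.11).

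In GCSF-OHT, 5 mitochondrial genes rose between 16h and 20h, against 0.184% of all genes higher. mt-Nd6 was at 6461, 5707 and 5883 at 16h, below every 20h library (8684, 10372 and 10327), and rose (log2 fold change 0.70, SE 0.11, limma adjusted p = 1.77e-05). mt-Nd3 rose too (0.92, SE 0.18). Between 56h and 64h, 7 mitochondrial genes fell, against 0.459% of all genes lower. The level of mt-Nd6 was 8381, 8630 and 9675 at 56h and its libraries of 64h were all lower (3948, 4381 and 4873), and it fell by 1.02 log2 units (SE 0.11). mt-Atp6 fell by 1.0 log2 units (SE 0.16). Between 88h and 96h, after fresh medium and OHT at 88h, 4 rose, against 1.15% of all genes higher, mt-Cytb (0.73, SE 0.12) among them. Between 120h and 128h, 6 fell, against 1.22% lower, mt-Nd4l (-0.97, SE 0.30) and mt-Atp6 (-0.94, SE 0.16) among them. Here too the 120h libraries are of the other name series, and time and series cannot be told apart. The mitochondrial median was 0.48 in the step that ends at 120h and -0.57 in the step that starts there.

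Summing members and copies left most of these counts close. The 5 IL3-OHT steps then had 9, 7, 6, 12 and 6 mitochondrial calls in place of 9, 5, 5, 11 and 6, and the 4 GCSF-OHT steps had 5, 7, 4 and 4 in place of 5, 7, 4 and 6. The mitochondrial calls of each of these steps had 1 direction in both ways of counting.

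**Figure D3:**
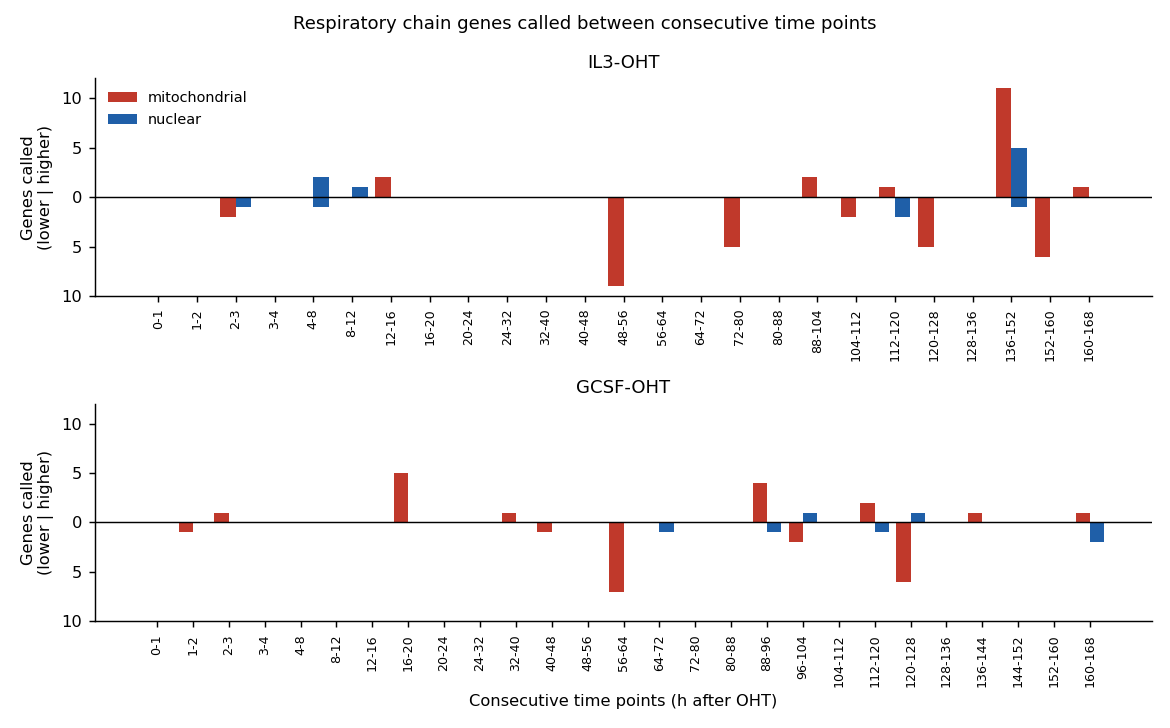
Number of mitochondrial and nuclear respiratory chain genes called between consecutive time points of IL3-OHT and GCSF-OHT (bars up: higher, bars down: lower). Long bars are the 9 mitochondrial genes lower from 48h to 56h and the 11 higher from 136h to 152h in IL3-OHT, and the 7 lower from 56h to 64h in GCSF-OHT.

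Over whole courses, the means of mitochondrial genes covered a wider range than those of nuclear genes. The ratio of the highest to the lowest mean of a mitochondrial gene ran from 1.64 to 8.48 in IL3-OHT (median 3.85) and from 1.62 to 3.70 in GCSF-OHT (median 2.95). For nuclear genes with a highest mean of at least 100 it ran from 1.28 to 4.26 in IL3-OHT (79 genes, median 1.66) and from 1.19 to 2.77 in GCSF-OHT (77 genes, median 1.51). The widest ratio among mitochondrial genes was that of mt-Nd3 in IL3-OHT, from 441 ± 143 at 112h to 3735 ± 584 at 20h.

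The course of mt-Co1 (ENSMUSG00000064351, chrM:5328-6872, plus strand) was unlike that of the other mitochondrial genes. In undifferentiated cells its normalized counts were 141470, 152360 and 138740. After 48h of OHT in IL3 the counts stood at 170980, 177670 and 182870, after 128h at 144800, 144880 and 157720 and finally, after 168h, at 164430, 186260 and 172370. The 168h libraries were above the undifferentiated ones, but below the call threshold (log2 fold change 0.27, SE 0.10, limma adjusted p = 0.0123). It had the smallest ratio of highest to lowest mean among the mitochondrial genes in both courses, 1.64 in IL3-OHT and 1.62 in GCSF-OHT.

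The share of mt-Co1 in the reads of the 13 mitochondrial genes, with copies left out, moved widely. It was 39.1% ± 1.69 in undifferentiated cells, 64.2% ± 1.29 at IL3-OHT 128h, 64.7% ± 2.00 at 136h and 51.4% ± 0.95 at 168h. In GCSF-OHT it was 50.4% ± 1.49 at 128h and 41.8% ± 1.04 at 168h. The share of mt-Cytb, a part of the same sum, moved the other way in IL3-OHT, from 9.41% ± 0.58 in undifferentiated cells to 3.73% ± 0.17 at 128h.

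**Figure D4:**
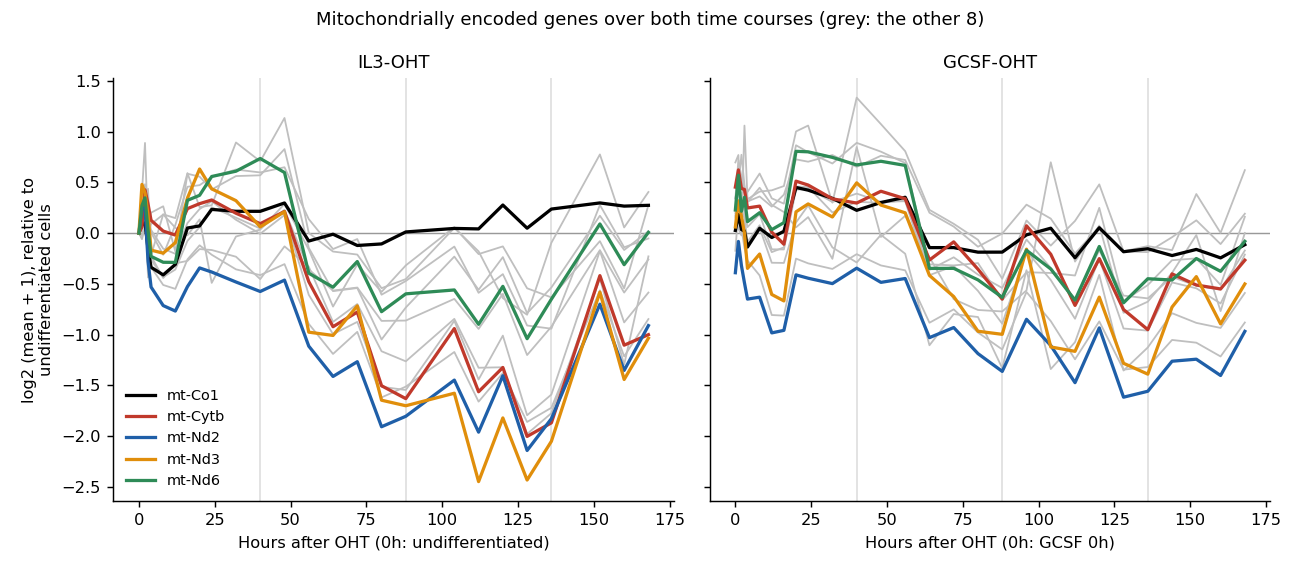
Mean level of each of the 13 mitochondrial genes, as log2(mean + 1) relative to undifferentiated cells, against hours after OHT (2 or 3 libraries per mean, no error bars; IL3-OHT 96h and 144h left out). In IL3-OHT mt-Co1 changes least (highest mean 1.64 times the lowest), while mt-Cytb, mt-Nd2 and mt-Nd3 reach their lowest means between 112h and 128h.

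The test of any change over a course (limma's moderated F, with a log2 fold change beyond ±0.58 at some time point) called 12 of 13 mitochondrial genes in each course, all but mt-Co1. In IL3-OHT it called 25 of 84 nuclear genes, against 69.7% of all genes, and the largest change was higher in 20 of them. In GCSF-OHT it called 35, against 62.5%, with 20 higher. The share of nuclear members called was below that of all genes in both courses, and this difference was not tested.

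The late part of each course, 152h to 168h, was compared with 80h to 128h, in IL3-OHT without 96h. The mitochondrial shares at IL3-OHT 96h were 1.39%, 1.518% and 1.551%, against 1.569%, 1.348% and 1.595% at 152h. A window with 96h was not tested. Both windows hold the 120h libraries of the other name series, and without these the same 10 members were called in IL3-OHT. In IL3-OHT 9 mitochondrial genes were higher, against 2.79% of all genes, with a median log2 difference of 0.65 over the 13. The largest were mt-Nd3 (0.94, SE 0.09), mt-Atp8 (0.85, SE 0.14), mt-Nd4 (0.82, SE 0.06) and mt-Nd2, a proton-pumping subunit of complex I (0.79, SE 0.06). Under upper-quartile and total-count scaling the count was also 9. Cox6a2, the muscle-type paralogue of Cox6a1, was the only nuclear gene called (-1.0, SE 0.12), against 2.80% of all genes lower. In GCSF-OHT no member was called by limma, edgeR or DESeq2, against 6.23% of all genes in either direction, while 50 nuclear and 3 mitochondrial genes had an unadjusted p under 0.05.

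IL3-OHT 96h and 144h, the time points that the authors excluded, were compared with their neighbours. The authors found them unlike the adjacent time points and wrote that this could be a transient effect of the preceding OHT supplement. It was not tested here. At 96h, 5 mitochondrial genes were higher than the mean of 88h and 104h, against 9.36% of all genes. They were mt-Nd3 (1.51, SE 0.16), mt-Cytb (1.30, SE 0.10), mt-Nd4 (1.0, SE 0.11), mt-Nd1, a core membrane subunit of complex I (0.93, SE 0.09), and mt-Nd2 (0.81, SE 0.11). The nuclear genes Ndufa6, Ndufv3, Cox7a1 and Ndufb3 were lower, against 8.17%. At 144h, 5 mitochondrial genes were higher than the mean of 136h and 152h, against 8.59%, led by mt-Nd4l (0.87, SE 0.26) and mt-Cytb (0.87, SE 0.10), and Cox4i2 was the only nuclear gene called. No member was called lower there by limma, edgeR or DESeq2, where 6.76% of all genes were, and 46 nuclear and 8 mitochondrial genes had an unadjusted p under 0.05 in either direction. The 144h replicates were far apart, with mitochondrial shares of 1.64%, 1.46% and 0.98%. The number of mitochondrial calls at 144h was 7 without the libraries numbered 3 and as low as 2 without another number.

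After 48h of GCSF in place of IL3, before any OHT, 9 nuclear genes were higher than in undifferentiated cells, against 13% of all genes, and 5 lower, against 20.7%. The nuclear median log2 fold change was 0.23, against -0.09 over all genes. By complex as named in the symbols, 5 higher and 1 lower were of complex I, Ndufa4 among the 5. The counts were 2 and 1 for complex III, 1 and 3 for complex IV, and 1 and 0 for complex V. Under total-count scaling, which moved the median of all genes to 0.12, the nuclear calls were 33 higher and 3 lower and the mitochondrial calls 4 and 0, while upper-quartile scaling left them at 9 and 5 and at 1 and 0. Along with these genes, 7 of 11 neutrophil markers rose and 1 fell, and 3 of 5 progenitor markers fell, whose part in the counts was not tested.

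Ndufb7, an accessory subunit of complex I, had 915, 949 and 935 normalized counts in undifferentiated cells. All libraries of GCSF 0h were higher, with 1652, 1628 and 1666 (log2 fold change 0.82, SE 0.06, limma adjusted p = 6.19e-24). Atp5k (0.82, SE 0.15), Uqcrc1, a core subunit of complex III (0.71, SE 0.05), Ndufb3 of complex I (0.70, SE 0.06), Ndufa4, grouped here by its symbol with complex I and known as a subunit of complex IV (0.68, SE 0.08), Cox5b (0.61, SE 0.07) and Uqcr11, a small subunit of complex III (0.60, SE 0.09), rose too. mt-Atp8 was the only mitochondrial gene called (log2 fold change 0.76, SE 0.29, limma adjusted p = 0.0172), and no call was left without the libraries numbered replicate 3.

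Cox7a2l, which is known to join complexes III and IV into supercomplexes, fell after GCSF pre-treatment (ENSMUSG00000024248, chr17:83501918-83517330, minus strand). Its normalized counts were 6808, 7065 and 7136 in undifferentiated cells, and every library of GCSF 0h was lower (3605, 3377 and 3424), and it fell by 1.01 log2 units (SE 0.06, limma adjusted p = 2.50e-29). Cox6a2 fell by 1.81 log2 units (SE 0.24), from 85.7 ± 1.08 to 24.0 ± 4.54. Cox7a1, the muscle-type paralogue of Cox7a2, fell by 0.99 log2 units (SE 0.29), Ndufa6 by 0.79 log2 units (SE 0.07) and Uqcrh, the hinge subunit of complex III, by 0.60 log2 units (SE 0.06).

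After 8h of OHT in IL3, 10 nuclear genes were called. Against undifferentiated cells, which are also the controls of the pre-treatment comparison, 5 were higher, against 11.8% of all genes, and 5 lower, against 17.9%. Under total-count scaling 10 were higher and 4 lower. Cox7a2l fell to 2850, 2922 and 3006, by 1.26 log2 units (SE 0.06, limma adjusted p = 1.13e-36). Ndufa6 was at 1523, 1492 and 1667 in undifferentiated cells and fell by 1.05 log2 units (SE 0.07) to 756, 773 and 730. In both genes every 8h library was below every undifferentiated one. Ndufv3, a small subunit of complex I, fell by 0.89 log2 units (SE 0.09), Uqcrh by 0.82 log2 units (SE 0.06) and Cox7a1 by 0.68 log2 units (SE 0.29).

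Of the 5 genes that rose in IL3-OHT at 8h, 4 belong to ATP synthase, and none of its 17 nuclear genes was called lower. Some of the 17 had a log2 fold change below 0 without a call. Their median was 0.17, against 0.15 for the nuclear genes of complex I. Atp5b, the catalytic beta subunit (ENSMUSG00000025393, chr10:128083273-128090391, plus strand), was at 24052, 25166 and 24575 in undifferentiated cells and higher in every 8h library (38351, 36477 and 38462), and rose (log2 fold change 0.62, SE 0.04, limma adjusted p = 5.21e-32). Atp5g1 (0.70, SE 0.06), Atp5pb, the stalk subunit b (0.61, SE 0.07), and Atp5g3, another gene of subunit c (0.60, SE 0.06), rose, as did Ndufb6 of complex I (0.79, SE 0.08). Among mitochondrial genes mt-Nd2 fell by 0.71 log2 units (SE 0.11), and under total-count scaling 0 were called. At this time 7 of 11 neutrophil markers were lower and 5 of 9 macrophage and monocyte markers higher, whose part was not tested.

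In GCSF, 8h of OHT gave no call among respiratory chain genes against GCSF 0h by limma, edgeR or DESeq2, where 9.40% of all genes were called in either direction. An unadjusted p under 0.05 was found for 21 nuclear and 2 mitochondrial genes. The nuclear median was -0.03 and the mitochondrial median -0.08.

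Several early nuclear changes in IL3-OHT fell into single steps. Between 4h and 8h, Cox7a2l fell by 0.79 log2 units (SE 0.06), and Ndufb6 (0.65, SE 0.08) and Atp5pb (0.58, SE 0.07) rose. Between 8h and 12h, Ndufv3 rose (0.81, SE 0.09), from 963, 860 and 948 to 1732, 1607 and 1523. The 12h libraries overlapped the undifferentiated ones (1753, 1852 and 1548). Cox7a2l had its lowest IL3-OHT mean of 2644 ± 78.2 at 12h and its highest of 9049 ± 595 at 136h.

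At 168h of IL3-OHT against undifferentiated cells, 5 nuclear genes were higher, against 10.2% of all genes, and 1 lower, against 15.2%. Ndufv3 rose (0.69, SE 0.09) to 2747, 2726 and 2798, above every undifferentiated library. Ndufa3 of complex I (0.66, SE 0.10), Atp5mpl of ATP synthase (0.66, SE 0.07), Cox7a1 (0.71, SE 0.29) and Cox6c2 rose. The last, annotated as a processed pseudogene, was near the floor of 3 reads in undifferentiated cells, with 4.39 ± 1.88 and 12.1 ± 2.30 (log2 fold change 1.32, SE 0.58, limma adjusted p = 0.0468). Cox6a2 fell by 1.25 log2 units (SE 0.24). Without the libraries numbered replicate 3, 3 nuclear genes were called instead of 6. Cox7a2l was at 7873, 8150 and 8349, above every undifferentiated library, and was not called.

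The mitochondrial genes called at this endpoint were all lower. They were mt-Nd3 (-1.02, SE 0.18), mt-Cytb (-1.0, SE 0.11), mt-Nd2 (-0.91, SE 0.11), mt-Nd1 (-0.85, SE 0.09) and mt-Nd4 (-0.59, SE 0.11). mt-Cytb was at 16109, 18730 and 17215, below every undifferentiated library. Of the 7 mitochondrial genes of complex I, 4 were thus lower by limma, along with the gene of complex III, and none of complexes IV and V. mt-Nd4 was just beyond the threshold (-0.5857). In all, edgeR, DESeq2 and upper-quartile scaling each called 4 mitochondrial genes lower.

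At 168h of GCSF-OHT against the same undifferentiated libraries, 3 nuclear genes were higher, against 15.5% of all genes, and 12 lower, against 23.6%. The nuclear median was -0.08 (0.00045 under total-count scaling) and that of all genes -0.11. The 8 lowest were Cox6a2 (-1.86, SE 0.24), Cox7a1 (-1.63, SE 0.29), Cox7a2l (-1.29, SE 0.06), Atp5g2, another gene of subunit c (-1.14, SE 0.21), Ndufa6 (-0.91, SE 0.07), Uqcrfs1, the Rieske iron-sulfur protein of complex III (-0.90, SE 0.06), Atp5g1 (-0.87, SE 0.06) and Uqcrh (-0.78, SE 0.06). Cox7a2l was at 2856, 3058 and 2673, below every undifferentiated library. Summed with Gm10175, Atp5g2 was just below the call threshold (log2 fold change -0.577, SE 0.07).

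Cox4i1, the common form of subunit 4 of complex IV, was at 10113, 10171 and 9977 in undifferentiated cells and lower in every library of GCSF-OHT 168h (6556, 6576 and 6486), and fell (log2 fold change -0.63, SE 0.04, limma adjusted p = 5.61e-26). Ndufb7 (0.82, SE 0.06), Ndufa3 (0.77, SE 0.10) and Ndufb3 (0.65, SE 0.06) were higher. mt-Nd2 and mt-Nd1 were lower, as in IL3-OHT, and mt-Atp8 was higher (log2 fold change 0.68, SE 0.29, limma adjusted p = 0.0311) by limma and edgeR but not by DESeq2. mt-Nd2 fell by 0.97 log2 units (SE 0.11), from 21794, 24431 and 23217 to 11226, 12223 and 12042, without overlap, and mt-Nd1 by 0.88 log2 units (SE 0.09). mt-Cytb, at 26944, 29573 and 30057, was below every undifferentiated library and was not called.

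The comparison of GCSF-OHT 168h with GCSF 0h, whose libraries the pre-treatment comparison also uses, leaves out the pre-treatment. It holds OHT and 168h of culture together. No nuclear gene was higher by limma, edgeR or DESeq2, against 12.1% of all genes, and 12 were lower, against 12.6%. The nuclear median was -0.30 and the mitochondrial median -0.34, against 0 over all genes, and 73 of 84 nuclear and 13 of 13 mitochondrial log2 fold changes were below 0. An unadjusted p under 0.05 was found for 60 nuclear genes. Under total-count scaling, which moved the median of all genes to -0.16, 28 nuclear and 6 mitochondrial genes were lower and 0 higher. Over the same time 5 of 11 neutrophil markers rose and 5 fell, and 6 of 9 macrophage and monocyte markers rose and 2 fell, whose part was not tested.

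Of the 12 nuclear genes that fell, 5 were of complex I, 2 of complex III, 1 of complex IV and 4 of ATP synthase. Atp5g1 (ENSMUSG00000006057, chr11:96068852-96075670, minus strand) was at 2385, 2574 and 2774 at GCSF 0h and lower in all 168h libraries (1120, 1116 and 1104), by 1.21 log2 units (SE 0.06, limma adjusted p = 6.21e-36). Atp5a1, the alpha subunit of ATP synthase, had 14922, 15013 and 15520 normalized counts before OHT and fell by 0.93 log2 units (SE 0.04, limma adjusted p = 4.98e-47) to 7790, 8032 and 8056, also without overlap. Atp5g2 fell by 1.17 log2 units (SE 0.21) and Atp5b by 0.75 log2 units (SE 0.04). With Gm10175 summed, Atp5g2 was not called (-0.574, SE 0.07). Ndufs7 (-0.83, SE 0.08), Ndufv1 (-0.78, SE 0.05) and Ndufs8 (-0.65, SE 0.08), which hold iron-sulfur or flavin cofactors of complex I, and Uqcrc1 (-0.81, SE 0.05) were lower.

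Complex II had no call in this comparison, with log2 fold changes for Sdhd (-0.43, SE 0.05), Sdha (-0.26, SE 0.04), Sdhc (-0.25, SE 0.06) and Sdhb (-0.20, SE 0.06) that were all below 0. Cycs, cytochrome c itself, was not called (-0.51, SE 0.10), but its sum with Gm10053 was lower (-0.61, SE 0.07). The mitochondrial genes lower were mt-Nd4l (-0.74, SE 0.30), mt-Cytb (-0.72, SE 0.11), mt-Nd1 (-0.71, SE 0.09) and mt-Nd3 (-0.58, SE 0.18). With copies summed, mt-Nd4l (-0.41) and mt-Nd3 (-0.44) were not called, which left 2.

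Whether the change over 168h with OHT differed between the 2 cytokines was tested by the interaction at 168h. It is the change from GCSF 0h in GCSF minus the change from undifferentiated cells in IL3. Each change holds OHT and time in culture together. The OHT dose differed as well (100 and 200 nM), so that dose and cytokine cannot be told apart. The interaction was below 0 in 78 of 84 nuclear genes, with a median of -0.42 against 0.03 over all genes. It was called lower in 18, against 11.3% of all genes, and higher in 1, against 14.5%. Total-count scaling gave 38 and 1, with a nuclear median of -0.56 against -0.09 over all genes. By complex, 5 of 37 nuclear genes of complex I were lower, 3 of 8 of complex III, 5 of 17 tested of complex IV and 5 of 17 of complex V. In the interaction 6 of 11 neutrophil markers were higher and 3 lower, and 2 and 1 of 9 macrophage and monocyte markers, whose part was not tested.

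Atp5g1 had means of 2035 ± 124 and 1720 ± 18.2 before and after OHT in IL3, and 2578 ± 194 and 1113 ± 8.32 in GCSF, and its interaction was lower (log2 fold change -0.97, SE 0.09, limma adjusted p = 5.17e-18). Uqcrc1 was at 2524 ± 84.3 and 2545 ± 98.4 in IL3 and at 4119 ± 224 and 2354 ± 56.7 in GCSF (-0.82, SE 0.07). Other genes with a lower interaction were Cox6c2 (-1.93, SE 0.82), near the floor in undifferentiated cells, Atp5g2 (-1.36, SE 0.30, and -0.78, SE 0.09, summed with Gm10175), Cox7a1 (-1.36, SE 0.40), Atp5k (-0.96, SE 0.21), Uqcr11 (-0.96, SE 0.12) and Uqcr10, another small subunit of complex III (-0.80, SE 0.11). Cox6a2 was the only nuclear gene with a higher interaction (1.2, SE 0.34). Cox6a2 had means of 85.7 ± 1.08 and 35.5 ± 2.14 before and after OHT in IL3. In GCSF, the pre-treatment had already lowered Cox6a2 to 24.0 ± 4.54 before OHT, and it was not called higher under OHT there. Its higher interaction thus goes with a fall in IL3 and a lowered start in GCSF, not with a called rise in GCSF. No mitochondrial gene was called by limma, edgeR or DESeq2, and 3 had an unadjusted p under 0.05. With copies summed, mt-Nd3 was called (0.99).

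**Figure D5:**
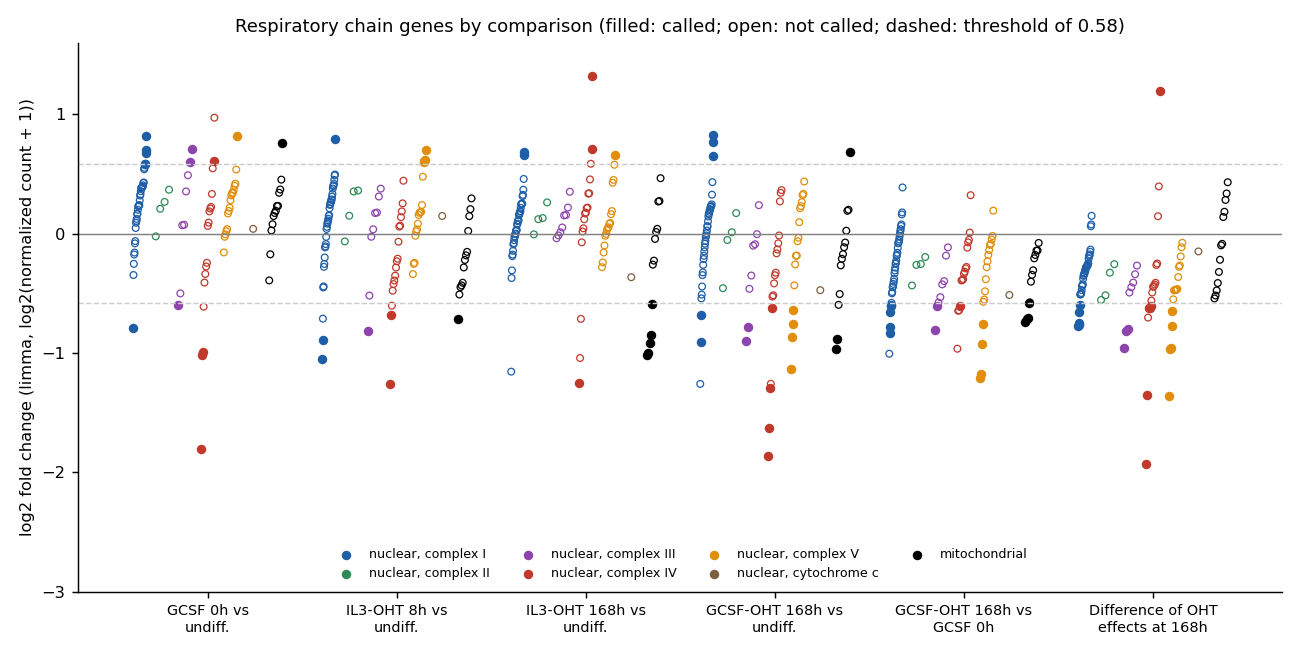
log2 fold changes of the 84 nuclear genes tested, by complex, and of the 13 mitochondrial genes in 6 comparisons (filled points: called; open points: not called; dashed lines: ±0.58). In the comparison of GCSF-OHT 168h with GCSF 0h 73 of 84 nuclear genes lie below 0, and in the interaction 78 do.

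Averaged over the 25 time points shared by both courses, GCSF-OHT was lower than IL3-OHT in 4 nuclear genes, against 15.1% of all genes, and higher in 0 by limma or edgeR, against 9.34%. They were Cox7a1 (-1.47, SE 0.06), Cox6a2 (-1.03, SE 0.05), Cox7a2l (-0.72, SE 0.01) and Cox4i2, the last near the floor, all named for complex IV. An unadjusted p under 0.05 was found for 75 nuclear genes, and total-count scaling gave 1 higher and 4 lower. The nuclear median was -0.08 (0.05 under total-count scaling), so its direction depended on the scaling. The difference was above 0 in 12 of 13 mitochondrial genes, most in mt-Cytb (0.48, SE 0.02), and 0 were called by limma or edgeR (11 with an unadjusted p under 0.05). Total-count scaling called 1.

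Paralogues of single subunits were expressed at very unequal levels. Per kb, mean normalized counts over all libraries were 5686 for Cox4i1 and 1.97 for Cox4i2, 9874 for Cox6a1 and 81.1 for Cox6a2, and 3607 for Cox6b1 and 2.23 for the testis form Cox6b2. Cox8a was at 8335 and Cox8b at 0.263, and Cox8c had no read. Cox7a2l was at 2900, Cox7a2 at 1887 and Cox7a1 at 83.4. Ndufa4 was at 486 and Ndufa4l2, which is known to respond to hypoxia, at 1.31. The genes for subunit c, which give the same mature protein, were at 1193 (Atp5g3), 426 (Atp5g1) and 194.7 (Atp5g2), the last without the reads given to Gm10175.

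At 168h of GCSF-OHT, normalized counts of Atp5g2 were 156.4, 136.9 and 153.2, below every undifferentiated library (378.1, 351.9 and 264.7), and Atp5g1 was lower as well. Summed with Gm10175, Atp5g2 was at 2852, 2895 and 2818, also below every undifferentiated library (4335, 4462 and 3998). Those of Atp5g3 were 2226, 2270 and 2205 against 2306, 2301 and 2255 in undifferentiated cells, so that the groups overlapped, and it was not called.

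In the GCSF course Cox7a1 made 6 of the 7 nuclear step calls, at a low level. It was at 22.44 and 35.02 at 112h, 4.37, 8.96 and 7.01 in the 120h libraries of the other name series, and 29.7, 24.1 and 26.6 at 128h. It fell (-1.95, SE 0.32) and rose again (1.88, SE 0.29). Both steps use the 120h libraries.

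Promoter sequences (RefSeq, GRCm38.p6, 250 bases before to 50 after the start) were at hand for 69 of the 86 nuclear genes. They were searched on both strands for motifs of factors known to act on respiratory genes and for PU.1. The NRF1 motif was in 24.6% of them and in 5.19% of 27025 promoters of the same length. The ETS motif CCGGAAG, which GABP binds, was in 24.6% against 9.93%, and the YY1 motif AAGATGGCG in 10.1% against 1.64%. The CRE motif TGACGTCA was in 7.25% against 2.03%, and the ERR motif TCAAGGTCA in 2.90% against 0.466%. The PU.1 motif GAGGAAGT, which shares the core GGAAG with the ETS motif, was in 4.35% against 3.69%. A match is a description of letters and not a bound site.

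The NRF1 motif (capitals, its sixth base free) is shown for 3 genes with different courses. They are Atp5g2, with a low interaction, Atp5k, which rose after GCSF pre-treatment, and Sdha, the flavoprotein of complex II, with no call at either endpoint. The stretches are chr15:102671055-102671114, chr5:108434415-108434474 and chr13:74350304-74350363 (GRCm38.p6, all minus strand, upstream of the start).
Atp5g2: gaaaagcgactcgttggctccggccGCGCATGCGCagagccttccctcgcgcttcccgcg
Atp5k: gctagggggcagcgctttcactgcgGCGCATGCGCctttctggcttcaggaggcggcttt
Sdha: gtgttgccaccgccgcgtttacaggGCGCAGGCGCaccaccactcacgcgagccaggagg
These 3 were chosen for their different courses, and motif and course were not compared over the 17 members that carry the motif. In undifferentiated cells Sdha was at 4534, 4561 and 4775, in IL3-OHT 168h at 4653, 4532 and 4626 and in GCSF-OHT 168h at 4313, 4611 and 4444, and the groups overlapped.

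Genes that serve the chain were counted from lists, beside the same all-gene shares as above. Of 13 genes of the TCA cycle, which supplies the chain with NADH and succinate, 2 rose and 1 fell after GCSF pre-treatment (median 0.27). Of all genes, 13% rose and 20.7% fell there. Under OHT in GCSF 0 rose and 6 fell (median -0.44), against 12.1% of all genes higher and 12.6% lower. Idh3a, a subunit of isocitrate dehydrogenase, rose (0.83, SE 0.07) and then fell (-1.12, SE 0.07). The interaction was lower in 5 of the 13 (median -0.56), against 11.3% of all genes.

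Assembly factors were counted at IL3-OHT 8h, where 11.8% of all genes were higher and 17.9% lower. Of 14 factors for complex I, 6 rose and 0 fell (median 0.53), led by Ecsit (1.36, SE 0.10) and Ndufaf4 (1.24, SE 0.14), and of 31 factors for complexes II to V, 6 rose and 1 fell (median 0.27). Sco2, a copper chaperone of complex IV (1.68, SE 0.22), rose, and Surf1, another complex IV factor (-0.77, SE 0.07), fell. Under OHT in GCSF, where 12.1% of all genes rose and 12.6% fell, 0 rose and 3 fell of the former. Of the latter 0 rose and 6 fell. Ecsit (-0.78, SE 0.10), Sco2 (-1.10, SE 0.22) and Cox10, which acts in heme A synthesis (-1.09, SE 0.08), were among those that fell.

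Of 20 tested genes for mitochondrial DNA replication, transcription and RNA processing, 8 rose and 0 fell at IL3-OHT 8h (median 0.41). Of all genes, 11.8% rose and 17.9% fell there. Lrpprc, which stabilizes mitochondrial mRNAs (0.81, SE 0.05), and Polrmt, the mitochondrial RNA polymerase (0.75, SE 0.10), were among the 8, while 1 of 13 mitochondrial mRNAs fell. Tfam, which packages mitochondrial DNA, rose after GCSF pre-treatment (0.72, SE 0.09). In that comparison 3 of the 20 rose, against 13% of all genes, and 0 fell, against 20.7%. Under OHT in GCSF, where 12.1% of all genes rose and 12.6% fell, 2 rose and 5 fell. Polg2, a subunit of the DNA polymerase, was higher (1.38, SE 0.12) and Fastkd2, an RNA-binding protein, lower (-0.86, SE 0.11). Of 10 regulators of mitochondrial biogenesis 0 rose and 3 fell under OHT in GCSF, against the same shares of all genes. Ppargc1b, a coactivator of respiratory genes, rose after pre-treatment (1.63, SE 0.13) and fell under OHT in GCSF (-1.0, SE 0.13), and its interaction was lower (-1.86, SE 0.19).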

How the data were processed

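RNA-Seq libraries of polyadenylated RNA were made for 165 samples. The deposited signal is 1 table of normalized counts per gene and library, for which the authors aligned reads to GRCm38 transcripts with Salmon and divided gene counts by DESeq2 size factors. Whole reads were recovered from the steps of the values (100% of values, tolerance 1e-06), which gave the library totals. Groups came from the sample labels. The members and lists were chosen with earlier results of these data known.

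log2(normalized count + 1) was fitted with 1 mean per group by limma 3.58.1 (trended eBayes, R 4.3.3) over 159 libraries, leaving out IL3-OHT 96h and 144h, which entered only a fit over all 165. Genes with a normalized count of 5 or more in 1 or more libraries were kept (17414 genes, or 17439 with all libraries). P-values were adjusted by Benjamini-Hochberg over all of them, and fold changes of low genes are understated by the added 1. edgeR 4.0.16 and DESeq2 1.42.0 were run on the recovered reads as alternatives. Over all genes, limma, edgeR and DESeq2 called 5861, 5663 and 5282 for pre-treatment, 4423, 4163 and 3876 for the IL3-OHT endpoint, and 6807, 6513 and 6061 for the GCSF-OHT endpoint. On simulated pre-treatment counts (15845 genes, 50 of them changed per fold), 46% of 1.5-fold and 100% of 2-fold changes were recovered, with 0.0703% false calls. The 1.5-fold genes had a median log2 fold change of 0.57, just below the threshold of a call, which limits their recovery. These rates describe the simulated counts and are not error rates of the calls reported here.

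Every mitochondrial member could be named, and in each comparison up to 8 called nuclear members with the highest and 8 with the lowest log2 fold change, together with paralogues of 1 subunit, Cycs, Sdha to Sdhd and the main subunits of complexes III to V, and up to 4 called genes in each direction of a list. Replicate numbers did not pair the wells. Alternatives changed the pseudocount (0.5 and 5), the filter, the scaling, the libraries, the block, the groups fitted and the test, and summed members with near-identical pseudogenes or, in another alternative, with other near-identical rows. Replicates differed by more than counting noise (chi-square per gene 2.29 to 73.2). Spike-ins were not used here.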

Additional observations from a re-analysis of the deposited data

Results flagged for a closer look

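The interaction at 168h was called in 19 nuclear genes, so that the change under OHT differed between GCSF and IL3 by limma's test of the difference itself. Of these, 18 were lower and 1 higher, and no mitochondrial gene was called (limma, edgeR and DESeq2, with 3 at an unadjusted p under 0.05). The log2 differences of the named genes were 1.2 for Cox6a2, -1.93 for Cox6c2, -1.36 for Atp5g2, -1.36 for Cox7a1, -0.97 for Atp5g1, -0.96 for Atp5k, -0.96 for Uqcr11, -0.82 for Uqcrc1 and -0.8 for Uqcr10. The OHT dose, 100 nM in GCSF and 200 nM in IL3, cannot be told apart from the cytokine, nor OHT from time in culture. The GCSF arm starts from cells with a pre-treatment that had raised Atp5k, Uqcr11 and Uqcrc1 and lowered Cox6a2 and Cox7a1. Cox6c2, annotated as a processed pseudogene, was near the floor of 3 reads in undifferentiated cells, and Cox6a2 and Cox7a1 were measured at low levels. Atp5g2 shares reads with the identical row Gm10175, and its difference was -0.78 with both summed.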

How the results depend on the processing

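Of 598 alternative values of 34 counts of called genes, 574 stayed within 1.5 times the reported count. Of 4196 alternative values of 236 named fold changes none turned direction, 76 lost their call and 26 gained one. Total-count scaling gave 36 nuclear and 4 mitochondrial calls for pre-treatment, 0 mitochondrial calls at IL3-OHT 8h, 28 nuclear calls under OHT in GCSF, 39 nuclear calls in the interaction, 1 mitochondrial call for GCSF against IL3 and 2 nuclear calls at IL3-OHT 96h. With copies summed, an alternative chosen after seeing the data, OHT in GCSF had 2 mitochondrial calls and the interaction 1. Summing Atp5g2 with Gm10175 and Cycs with Gm10053, also chosen after seeing the data, ended the call of Atp5g2 at the GCSF-OHT endpoint (-0.577) and under OHT in GCSF (-0.574). Fits of only the groups compared gave 0 mitochondrial calls for pre-treatment, and 3 nuclear and 8 mitochondrial calls over the GCSF steps, from fewer samples per fit. edgeR called 1 mitochondrial gene at GCSF-OHT 104h, and under a filter on means below 10 the nuclear call at IL3-OHT 144h went to 0, its gene being below that level.

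Leaving out each replicate number in turn gave 0 to 1 mitochondrial calls for pre-treatment, 3 to 6 nuclear calls at the IL3-OHT endpoint, 0 to 1 nuclear calls in the GCSF late window, 0 to 1 mitochondrial calls at GCSF-OHT 104h (1 without replicate 1 or 2 and 0 without replicate 3), 0 to 2 nuclear and 2 to 7 mitochondrial calls at IL3-OHT 144h, and 18 to 30 mitochondrial calls over the GCSF steps, where leaving out only GCSF-OHT 104h replicate 3 gave 32. Without replicate 3, the values were 0 for pre-treatment, 3 at the IL3-OHT endpoint, 1 in the GCSF late window and 18 over the GCSF steps. Where no cause is given, the cause was not tested. The replicate block changed no count (14 nuclear genes for pre-treatment with and without it), and same-numbered wells did not deviate together (correlations of -0.053 to 0.036). DESeq2 was not run for GCSF against IL3, the consecutive steps and the change over time. Depth limits values under the floor of 1.96 to 5.51, which concerns Cox4i2, Cox6b2, Cox6c2, Cox7b2, Cox8b, Cox8c and Ndufa4l2.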
